A study of Mus musculus with 36 samples.

Results

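The step from T4 to T6 of a lipopolysaccharide (LPS) time course was measured in wild-type mouse macrophages, as the difference between the 3 libraries labelled T6 and the 3 labelled T4, 6 of the 36 libraries of the series. Both groups were bone marrow-derived macrophages (BMDMs), cells grown out of marrow in culture, from mice called COP1-wt Rosa26-CreERT2, and both had received 100 ng/ml of LPS at day 7 of differentiation. The same 3 individuals gave a library at T6 and a library at T4, so the groups differ in the time label and in nothing else that the labels record. Both carry the Rosa26-CreERT2 allele, a broadly expressed Cre recombinase that acts after tamoxifen. Whether the cells received tamoxifen, the unit of the time labels and the age of the mice are not given in the sources used here. A longer LPS exposure and a longer time in culture cannot be told apart, since a library of cells kept without LPS to T6 was not analysed here. The same step in macrophages from COP1-floxed Rosa26-CreERT2 mice, 3 libraries at T6 and 3 at T4 from 3 other individuals, serves below as a comparison with no shared library.

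LPS, a component of the outer membrane of Gram-negative bacteria, is sensed by TLR4 with its co-receptors CD14 and MD-2. The adaptor MyD88 leads to NF-kB and MAP kinase signalling and to a fast wave of cytokine mRNAs, while the adaptor TRIF leads to the transcription factor IRF3 and to interferon-beta. Secreted interferon-beta then acts back on the same cells through its receptor and a complex that holds STAT2 and IRF9, which induces a later set of genes. Many early mRNAs are short-lived and are removed by proteins that bind AU-rich elements in their 3′ ends, and early genes also encode their own inhibitors.

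The T6 libraries held 32365192 to 36804846 counts with 18251 to 18391 genes detected, and the T4 libraries held 32931527 to 37003696 counts with 18231 to 18532 genes detected. Macrophage markers were abundant at both times. The 10 markers summed to 20260 to 22477 CPM in the T6 libraries and to 22484 to 23378 CPM in the T4 libraries. CPM are counts relative to a library total scaled by TMM, except for Xist and Ddx3y, which use the unscaled library total. Libraries of individual 2 held Xist, the RNA of the inactive X chromosome, at 71.1 CPM of the library total at T6 and 70.8 CPM at T4, together with the Y-linked gene Ddx3y at 22.1 CPM at T6 and 25.1 CPM at T4. Individuals 1 and 3 held Xist at no more than 0.149 CPM and Ddx3y at 34.6 CPM or more. The libraries labelled individual 2 thus held transcripts of an inactive X and of a Y chromosome together, which cells of 1 typical male or female mouse would not; whether they come from more than 1 mouse was not tested, and the name individual is kept here as the labels give it. Without individual 2, 31 of 279 called list members and named genes lost their call, fewer than the 58 without individual 1 and the 57 without individual 3. Rfwd2, the gene that encodes COP1, was at 12.9, 11.8 and 12.2 CPM in individuals 1, 2 and 3 at T6 and at 14.5, 15.1 and 13.9 CPM at T4, and was not called (log2 fold change -0.24, SE 0.10, adjusted p = 0.0886). In 2 of 15 alternatives Rfwd2 was called lower by edgeR. These were the 6 libraries alone with the individual as a block (adjusted p = 0.0232) and scaling by library totals (0.0255).

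Of 15685 genes tested, 2368 (15.1%) were called higher at T6 and 2286 (14.6%) were called lower, where called means an adjusted p under 0.05. Adjusted p-values here come from edgeR's quasi-likelihood test with Benjamini-Hochberg adjustment over all genes tested, in a fit that keeps the labelled individual as a block, and per-library values are CPM scaled by TMM. The changes were mostly modest. The median log2 fold change was 0.55 over the genes called higher and -0.55 over those called lower, against -0.010 over all genes tested, and 16.4% of called genes changed at least 2-fold. That stricter rule left 378 genes higher (2.41% of genes tested) and 387 lower (2.47%). All 3 T6 libraries lay above all 3 T4 libraries in 3108 genes (19.8%) and below them in 3192 genes (20.4%), while 412 called genes had libraries that overlapped. With library totals in place of TMM scaling the split was 1914 higher and 2894 lower, and the median log2 fold change over all genes tested was -0.078. RNA was extracted from whole cultures, so fewer cells of a type and less RNA per cell cannot be told apart in any of these values.

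**Figure D1:**
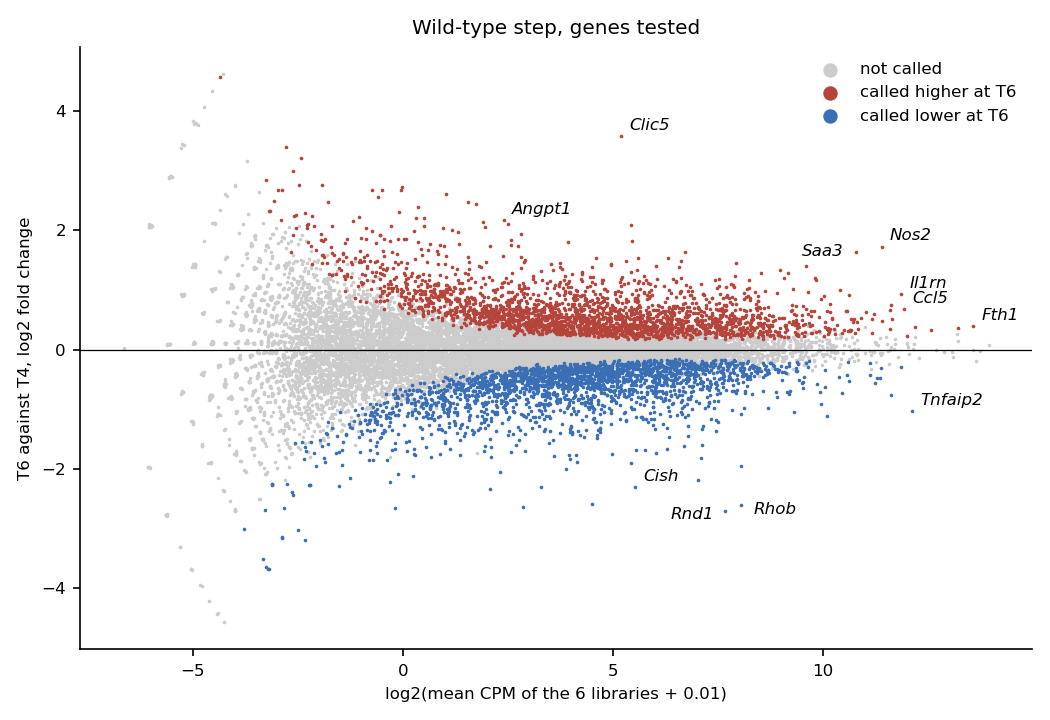
Log2 fold change of T6 against T4 (vertical) plotted against the log2 of the mean CPM of the 6 wild-type libraries plus 0.01 (horizontal), 1 point per gene tested. Red points are the 2368 genes called higher at T6, blue points the 2286 called lower and grey points the rest; among the labelled genes Clic5 stands highest and Rnd1 and Rhob lowest.

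The called genes were placed by the time of their highest mean in the whole wild-type course, T0 (untreated) to T13. Among the 2368 genes called higher at T6, 426 (17.99%) had their highest mean at T6, 708 (29.9%) at T9 and 860 (36.3%) at T13, and 352 (14.9%) were highest in untreated cells. Among the 2286 genes called lower, 884 (38.7%) were highest in untreated cells, 860 (37.6%) at T2.5 and 365 (15.97%) at T4. Over all genes tested, 33.8% were highest in untreated cells, 13.5% at T2.5 and 9.55% at T4. The shares at T6, T9 and T13 were 9.70%, 11.9% and 21.5%. No gene called higher was highest at T4 and no gene called lower at T6, which follows from the call itself. The call rests on the same T4 and T6 libraries, so it also favours T6 among genes called higher and T4 among genes called lower. The shares of the other times are affected too, so those over all genes tested are not a neutral reference. Against the untreated mean, 1339 (56.5%) of the genes called higher were above it at both times, 317 (13.4%) were above it at T6 and below it at T4, and 712 (30.1%) were below it at both times. Of the genes called lower, 659 (28.8%) were above the untreated mean at both times, 354 (15.5%) were below it at T6 and above it at T4, and 1273 (55.7%) were below it at both times. These positions use group means, with no test of the difference from untreated cells.

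The largest rise by the naming rule was in Clic5, a member of the chloride intracellular channel family (chromosome 17). Clic5 was at 83.5, 66.5 and 53.5 CPM in individuals 1, 2 and 3 at T6 and at 6.19, 4.84 and 5.74 CPM at T4. All T6 libraries lay far above all T4 libraries, and the fold was 12.1 (log2 fold change 3.58, SE 0.20, adjusted p = 1.01e-13). Untreated cells held 0.195 ± 0.163 CPM of it (SD, n = 3). Kynu encodes kynureninase, an enzyme of tryptophan breakdown, and Il12rb1 a shared receptor chain for IL-12 and IL-23. Kynu was at 7.19, 6.51 and 5.23 CPM at T6 and at 1.29, 1.77 and 1.44 CPM at T4 (log2 fold change 2.06, SE 0.19, adjusted p = 2.85e-09). Il12rb1 was at 6.68, 5.12 and 6.66 CPM at T6 and at 1.48, 1.23 and 1.47 CPM at T4 (log2 fold change 2.15, SE 0.17, adjusted p = 1.87e-10). Both were higher at T6 in every individual, with no overlap, as the naming rule requires of the largest rises and falls. Pde7b, a phosphodiesterase that degrades cyclic AMP, was at 68.5, 62.7 and 79.4 CPM at T6 and at 18.4, 15.4 and 15.7 CPM at T4, with a log2 fold change of 2.08 (SE 0.12). Other large rises were in Angpt1, an angiopoietin that binds the receptor Tie2 (log2 fold change 2.17), Dnase1l3, a secreted DNase (2.11), Serpinb9, an inhibitor of granzyme B (1.81), and Slc6a4, the serotonin transporter (1.74). Tmem178 (2.43), Kcnab1, a subunit of voltage-gated potassium channels (1.94), the prokineticin receptor Prokr1 (1.84), Intu (1.81) and Igfbp5, a binding protein of insulin-like growth factors (1.74), completed the largest rises together with Nos2 and Saa3, described below.

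The largest fall by the naming rule was in Rnd1, with Rhob close behind. Rnd1, an atypical small GTPase, was at 52.3, 52.1 and 58.05 CPM at T6 and at 345, 346 and 368 CPM at T4 (log2 fold change -2.70, SE 0.22, adjusted p = 2.76e-10). Rhob, a small GTPase found on endosomes, was at 82.03, 77.1 and 64.3 CPM at T6 and at 494, 460.1 and 410.0 CPM at T4 (log2 fold change -2.61, SE 0.14, adjusted p = 1.01e-13). The 3 T6 values of each gene were close together and far below the T4 values. Rnd1 was low in untreated cells, with 1.57 ± 0.542 CPM, and Rhob held 182 ± 18.8 CPM there (SD, n = 3 each). Arhgap19, a GTPase-activating protein, was at 1.71, 2.18 and 2.15 CPM at T6 and at 12.3, 13.03 and 12.4 CPM at T4 (log2 fold change -2.64). The palmitoyltransferase gene Zdhhc14 (-2.59), Ldlrad3 (-2.33), Nav2 (-2.31), Fchsd2, which acts in endocytosis (-2.18), Tcp11l2 (-2.04) and Arrb1, which encodes beta-arrestin 1 (-2.004), fell as well. The remaining large falls were in Bach1, a repressor of heme oxygenase transcription (-1.95), the nuclear envelope gene Syne3 (-1.91), the inositol trisphosphate kinase Itpkc (-1.88), the kinase gene Rps6ka5, which encodes MSK1 (-1.83), the Arf GTPase-activating protein Asap1 (-1.82) and Cish, described below.

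By absolute amount, and among called genes with separated libraries only, the gains in mean CPM were largest in Fth1, the ferritin heavy chain, at 13949 ± 679.9 CPM at T6 and 10589 ± 262 CPM at T4 (SD, n = 3 each), and in Nos2, Il1rn, Ifit2 and Saa3. Ifit2 was at 10759 ± 926 CPM at T6 and 8365 ± 709 CPM at T4 (adjusted p = 0.0258), but was not called without individual 2 (adjusted p = 0.0724) or individual 3 (0.0534). Among the same genes the losses were largest in Tnfaip2, an NF-kB target, at 2915 ± 222 CPM at T6 and 5942 ± 299.9 CPM at T4, and in Sdc4, Cdkn1a, Icam1 and Kctd12. CPM is not divided by gene length, so these amounts rank reads and not transcripts.

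**Figure D2:**
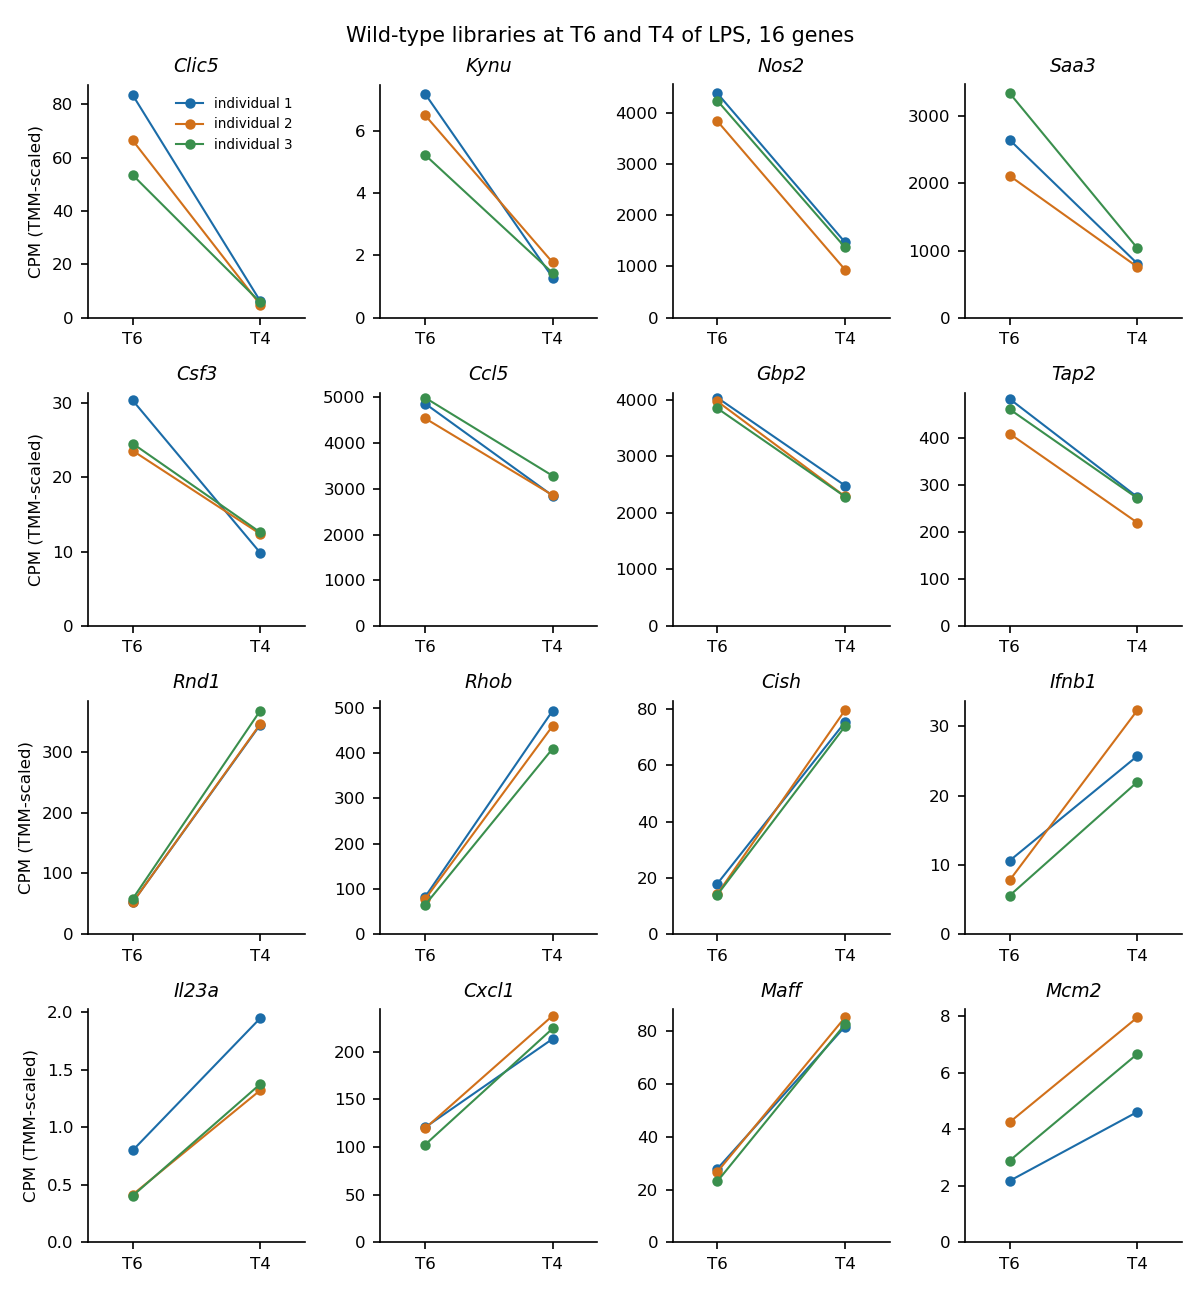
CPM (TMM-scaled, linear axes from 0) of 16 genes in each wild-type library, T6 on the left and T4 on the right, with 1 line per individual. The upper 2 rows hold genes called higher at T6 and the lower 2 rows genes called lower; in each panel all 3 lines run the same way and the T6 and T4 points do not overlap.

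Cytokine genes moved in both directions. Of 25 tested, 7 were called higher and 9 lower at T6, against 15.1% and 14.6% of all genes tested. The median log2 fold change was -0.044, against -0.010 over all genes tested. Counts of every list below are to be read against the same shares. Interferon-beta, Ifnb1, was at 10.6, 7.79 and 5.57 CPM at T6 and at 25.7, 32.3 and 21.96 CPM at T4 (log2 fold change -1.76, SE 0.18, adjusted p = 8.48e-09). Il23a, the p19 subunit of IL-23, was at 0.799, 0.415 and 0.405 CPM at T6 and at 1.95, 1.32 and 1.38 CPM at T4 (log2 fold change -1.55, SE 0.35, adjusted p = 0.00108). Both were lower in every individual, Il23a at levels near 1 CPM. Tnfsf9, the ligand of 4-1BB, also fell (log2 fold change -1.10), as did Lif (-0.62) and Tnfsf15 (-0.73). Lif was not called without the block (adjusted p = 0.17). Csf2, which encodes GM-CSF (-1.73), Osm (-0.68) and Il33 (-0.48) were called lower too, yet Csf2 lost its call without individual 2 (adjusted p = 0.15) or 3 (0.18), Osm without 3 (0.0626), and Il33 without 1 (0.15) or 3 (0.14). Without individual 3 the count of cytokine genes called lower was 5.

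Tnf, an early macrophage cytokine that acts on endothelium and on macrophages themselves, was at 2647, 1887 and 1789 CPM at T6 and at 3171, 2766 and 2744 CPM at T4 (log2 fold change -0.47, SE 0.17, adjusted p = 0.0324). The groups did not overlap, but the call was lost without individual 1 (adjusted p = 0.0554), 2 (0.14) or 3 (0.23) and without the block (0.0627).

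The 7 cytokine genes called higher were Il10, Il1rn, Csf3, Il18, Il1f6, Tnfsf10 and Il6. Il10, the anti-inflammatory interleukin, was at 261, 230.2 and 247 CPM at T6 and at 114, 125 and 150.1 CPM at T4 (log2 fold change 0.93, SE 0.15, adjusted p = 1.54e-05). Il1rn, the IL-1 receptor antagonist, was at 4907, 4644 and 5168 CPM at T6 and at 2589, 2463 and 2662 CPM at T4 (log2 fold change 0.93, SE 0.12, adjusted p = 3.56e-07). Both had T6 values well above all T4 values. Csf3, which encodes G-CSF, was at 30.4, 23.6 and 24.6 CPM at T6 and at 9.84, 12.4 and 12.6 CPM at T4 (log2 fold change 1.18, SE 0.18, adjusted p = 7.21e-06). Il18 (log2 fold change 0.65), the IL-36 alpha gene Il1f6 (1.85) and Tnfsf10, which encodes TRAIL (0.89), were higher as well. Il6 was at 802, 873 and 694 CPM at T6 and at 509.6, 583 and 493 CPM at T4 (log2 fold change 0.58, SE 0.22, adjusted p = 0.0433), and lost its call without individual 1 (adjusted p = 0.2), 2 (0.0895) or 3 (0.14) and without the block (0.0696). Not called were Il1a (log2 fold change -0.32, SE 0.23), Il1b (0.23, SE 0.28), Il12a (0.56, SE 0.23), Il12b (0.094, SE 0.26) and Il27 (-0.17, SE 0.20). Il12a was called higher in 6 of 14 alternatives, among them the fit of the 18 wild-type libraries and limma-voom.

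Of 20 chemokine genes, 3 were called higher and 3 lower at T6, shares near those of all genes tested, with a median log2 fold change of 0.070. Cxcl1, a neutrophil attractant, was at 120.5, 119 and 102 CPM at T6 and at 213, 238 and 224 CPM at T4 (log2 fold change -0.98, SE 0.18, adjusted p = 1.07e-04). Ccl5, an attractant of T cells and monocytes, was at 4868, 4545 and 4997 CPM at T6 and at 2849.8, 2861 and 3285 CPM at T4 (log2 fold change 0.68, SE 0.16, adjusted p = 0.0015). The libraries of each gene were fully separated, in opposite directions. Cxcl3, close in sequence to Cxcl1, was also called lower (-0.80), but not without individual 3 (adjusted p = 0.0588) or without the block (0.0526). The other calls, Ccl6 lower and Ccl7 and Cxcl16 higher, each failed without at least 1 individual (without individual 2, adjusted p = 0.0953 for Ccl6 and 0.0931 for Ccl7), and 1 chemokine gene was called higher without individual 1 or without individual 3. The interferon-induced Cxcl10 was not called, at 8511 ± 390.3 CPM at T6 and 8753 ± 100.3 CPM at T4 (SD, n = 3 each; log2 fold change -0.043, SE 0.28). Cxcl2, Cxcl9, Ccl2, Ccl3 and Ccl4 were not called, with log2 fold changes of -0.37, 0.22, 0.17, 0.089 and -0.24. Cxcl2 was called lower in 7 of 15 alternatives, among them the fit of the 18 wild-type libraries and limma-voom, and Ccl4 in 2, both fits of the 6 libraries alone.

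The 3′ untranslated regions of several genes that fell hold the AU-rich nonamer TTATTTATT, a core element of short-lived cytokine mRNAs that binding proteins such as tristetraprolin recognise. This search was chosen after the results were seen, used the annotated strand only and counted overlapping matches. The following 25-base windows around a match are printed with the nonamer, or overlapping copies of it, in capitals, on GRCm38 with the GENCODE vM21 annotation.
Tnf (chr17:35199691-35199715, minus strand): tgcacttaTTATTTATTATTTATTt
Cxcl1 (chr5:90892617-90892641, plus strand): ttatgtatTTATTTATTccacaaag
Cxcl3 (chr5:90787869-90787893, plus strand): atcagttgTTATTTATTgaaatggt
Il23a (chr10:128296186-128296210, minus strand): gatgatggTTATTTATTctatttat
Cish (chr9:107301379-107301403, plus strand): tacagtatTTATTTATTTATTctcc
Maff (chr15:79358780-79358804, plus strand): ccacactcTTATTTATTgcacgaat
Ppp1r15a (chr7:45522959-45522983, minus strand): gtttcctaTTATTTATTTATTTATT
Ptgs2 (chr1:150105792-150105816, plus strand): gaccatatTTATTTATTtatgtgaa
Dusp1 (chr17:26506161-26506185, minus strand): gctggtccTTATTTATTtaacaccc
Tnf holds 5 matches, Ppp1r15a 4, Cxcl1, Cish, Maff and Dusp1 2 each, and the rest 1. Ptgs2 and Dusp1 were called higher at T6, so the element was present in genes that moved either way. It was in 13.6% of the 332 genes that fell at least 2-fold and have an annotated 3′ region, and in 7.67% of the 313 that rose at least 2-fold, against 7.92% of all 13073 genes tested that have one. Over all called genes the shares were 7.89% of those higher and 8.93% of those lower. The 3′ regions of the genes that fell at least 2-fold were also longer, with a median of 1544 bases against 1146 over all genes tested. Per kilobase they held 0.0881 nonamers, against 0.0671 over all genes tested. A match describes the letters of the window and does not show binding or decay.

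Transcription factors of the early response were split. Of 23 immediate early genes, 5 were called higher and 7 lower at T6, against 15.1% and 14.6% of all genes tested (median log2 fold change -0.089). Maff, a small Maf factor, was at 27.9, 26.8 and 23.2 CPM at T6 and at 81.9, 85.3 and 82.7 CPM at T4 (log2 fold change -1.68, SE 0.15, adjusted p = 5.67e-10). Fosb (-1.85), Nr4a3 (-0.82), Fos (-0.56), Ier5 (-0.52) and Jund (-0.37) fell too. In the other direction, Nr4a1, an orphan nuclear receptor, rose by a log2 fold change of 1.34 and its relative Nr4a2 by 0.85. Klf4, a zinc finger factor of monocyte differentiation, was at 34.6, 33.3 and 27.8 CPM at T6 and at 17.1, 16.1 and 19.03 CPM at T4 (log2 fold change 0.87, SE 0.13, adjusted p = 6.06e-06), and the antiproliferative gene Btg2 rose by 0.72. Jun (0.17), Egr1 (0.25) and Atf3 (-0.089) were not called. Among 6 C/EBP family genes, Cebpd rose (log2 fold change 0.73, SE 0.15), Cebpb was not called (0.17, SE 0.13), and Cebpz was called lower (-0.33) but not without individual 1 (adjusted p = 0.1) or 3 (0.0593).

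Genes of NF-kB subunits and their inhibitors were called in 1 direction: none of 16 was higher and 6 were lower at T6 (median log2 fold change -0.20). Over all genes tested the shares were 15.1% higher and 14.6% lower. The calls that held without each individual were Nfkbiz, an atypical inhibitor that also co-activates Il6 (604 ± 51.9 CPM at T6 and 877 ± 47.8 CPM at T4, SD, n = 3 each; log2 fold change -0.54, SE 0.12, adjusted p = 0.00119), Nfkbid (-0.41) and Tnip2, a partner of A20 (-0.59). Tnfaip3, which encodes A20 itself (-0.32), Nfkbia, the classical IkB-alpha (-0.21), and Rel (-0.61) were not called in at least 1 such fit, with adjusted p-values of up to 0.11, 0.25 and 0.12, all without individual 3. Without individual 2 the values were 0.0648 for Tnfaip3 and 0.13 for Nfkbia. The count was 3 of 16 without individual 1, without individual 3 and without the block. In those fits 1548, 1544 and 1871 of all genes tested were called lower.

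Among 18 SOCS, dual-specificity phosphatase and mRNA decay genes, 1 was called higher and 4 lower at T6 (median log2 fold change -0.14). Over all genes tested 15.1% were higher and 14.6% lower. Cish, a SOCS family inhibitor induced by STAT5, was at 17.9, 14.3 and 14.01 CPM at T6 and at 75.4, 79.6 and 73.9 CPM at T4 (log2 fold change -2.31, SE 0.15, adjusted p = 4.44e-12). Dusp1, a phosphatase that switches off p38 and JNK, was at 381, 407 and 479 CPM at T6 and at 213, 253 and 314 CPM at T4 (log2 fold change 0.70, SE 0.13, adjusted p = 7.07e-05). Cish was lower and Dusp1 higher in every individual, without overlap. The other calls lower, Dusp5, Dusp14 and Rc3h1, were lost without at least 1 individual (Dusp5 at an adjusted p of 0.1 without individual 2), and 1 gene remained called lower without individual 3. Without the block, 2 genes were called lower. Socs1 (-0.11), Socs3 (-0.033) and the tristetraprolin gene Zfp36 (0.19) were not called.

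Components of interferon and STAT signalling changed in both directions. Of 22 tested, 8 were called higher and 6 lower, against 15.1% and 14.6% of all genes tested (median log2 fold change 0.14). Stat4, the transducer of IL-12 signals, was at 9.34, 11.3 and 11.6 CPM at T6 and at 3.24, 4.74 and 3.74 CPM at T4 (log2 fold change 1.47, SE 0.13, adjusted p = 5.64e-10). Stat2 rose by a log2 fold change of 0.74, Stat3 by 0.49 and the receptor kinase Tyk2 by 0.58. Stat5a, which acts below GM-CSF and related cytokines, was at 110.4, 98.9 and 114 CPM at T6 and at 241, 231 and 263 CPM at T4 (log2 fold change -1.18, SE 0.11, adjusted p = 1.89e-09), and Stat5b also fell (-0.51). The STAT genes therefore moved in opposite directions. Both chains of the interferon-gamma receptor were called, Ifngr2 higher (0.50) and Ifngr1 lower (-0.90), while the type I receptor genes Ifnar1 (-0.13) and Ifnar2 (0.13) were not. Irf7, which amplifies interferon production, was at 2094, 1906 and 2241 CPM at T6 and at 1103, 973 and 1225 CPM at T4 (log2 fold change 0.92, SE 0.16, adjusted p = 5.13e-05). Irf1 was at 1223, 1010.3 and 953 CPM at T6 and at 1912, 1743 and 1628 CPM at T4 (log2 fold change -0.73, SE 0.10, adjusted p = 7.51e-07). Irf8, a factor of the macrophage lineage, fell alongside Irf1 (-0.72).

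Interferon-stimulated genes were called higher or not at all, 20 of 42 higher and none lower at T6, against 15.1% and 14.6% of all genes tested; their median log2 fold change was 0.28. Usp18, the protease that removes ISG15 and blocks the interferon receptor, was at 1291, 1216 and 1319 CPM at T6 and at 689.7, 669.7 and 773 CPM at T4 (log2 fold change 0.85, SE 0.11, adjusted p = 1.29e-06). Isg15, the ubiquitin-like protein itself, rose by a log2 fold change of 0.64 (SE 0.15), the RNase gene Isg20 by 0.80 and Ifi44 by 0.90. Smaller rises were in the antiviral GTPase gene Mx1 (0.51) and the RNA sensors Ddx58, which encodes RIG-I (0.41), and Dhx58 (0.53). Gbp2, a guanylate-binding protein that acts on intracellular pathogens, rose by 0.75 (SE 0.13). Gbp2, Gbp3, Oas1a and Oas1g belong to families of near-identical copies and their values are less certain, since uniquely aligning reads were counted. Well-known members such as Ifit1 (-0.14), Ifit3 (0.22), Rsad2 (0.077) and Cmpk2 (0.15) were not called.

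Promoter sequence is shown for genes of both groups to set the response element of interferon-induced genes beside an NF-kB motif. The windows run from 250 bases before to 50 bases after the annotated start, are from RefSeq on GRCm38.p6, and have the motif, on either strand, in capitals. The motif is the core of the interferon-stimulated response element, written GAAA, any 2 bases and GAAA, in the first 3 windows. In the last it is an NF-kB motif, written GGGA, any base and TTTCC.
Isg15 (chr4:156200769-156201068, minus strand): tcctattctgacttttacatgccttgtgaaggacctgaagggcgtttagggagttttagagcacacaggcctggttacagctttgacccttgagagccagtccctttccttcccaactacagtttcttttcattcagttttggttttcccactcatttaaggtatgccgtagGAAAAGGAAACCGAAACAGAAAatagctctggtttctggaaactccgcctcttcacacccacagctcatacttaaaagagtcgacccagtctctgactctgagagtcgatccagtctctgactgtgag
Gbp2 (chr3:142620413-142620712, plus strand): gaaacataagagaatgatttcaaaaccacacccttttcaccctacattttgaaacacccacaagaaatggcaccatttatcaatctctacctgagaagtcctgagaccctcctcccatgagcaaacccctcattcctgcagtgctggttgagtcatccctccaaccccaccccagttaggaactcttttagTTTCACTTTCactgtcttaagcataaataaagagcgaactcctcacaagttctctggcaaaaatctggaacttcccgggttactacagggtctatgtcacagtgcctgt
Stat4 (chr1:52007990-52008289, plus strand): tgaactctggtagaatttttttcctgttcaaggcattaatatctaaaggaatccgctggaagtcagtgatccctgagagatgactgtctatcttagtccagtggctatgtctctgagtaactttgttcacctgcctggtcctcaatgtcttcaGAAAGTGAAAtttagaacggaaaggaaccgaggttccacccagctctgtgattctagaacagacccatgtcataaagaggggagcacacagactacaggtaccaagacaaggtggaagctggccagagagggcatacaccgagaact
Cxcl1 (chr5:90890995-90891294, plus strand): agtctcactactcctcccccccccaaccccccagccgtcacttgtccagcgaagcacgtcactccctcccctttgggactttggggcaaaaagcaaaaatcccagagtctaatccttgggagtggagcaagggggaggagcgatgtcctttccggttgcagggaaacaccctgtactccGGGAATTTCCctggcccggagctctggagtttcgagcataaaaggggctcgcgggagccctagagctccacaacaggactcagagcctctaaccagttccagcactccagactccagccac
Isg15 holds 3 overlapping matches, starting 78, 72 and 66 bases before the start site, and the single matches begin 59 bases before it in Gbp2, 97 in Stat4 and 71 in Cxcl1. A second annotated start of Stat4 has no match in its window. Searched on both strands, the response element core was in 5.07% of 2346 windows of genes called higher and in 2.39% of 2297 windows of genes called lower, against 3.30% of all 14602 windows of genes tested. Among genes that changed at least 2-fold the shares were 6.32% of windows of genes higher and 2.62% of windows of genes lower. The NF-kB motif was in 0.597% and 0.566% of windows of genes called higher and lower, against 0.479% of all. Among genes that changed at least 2-fold the NF-kB shares ran the other way, 1 of 348 windows of genes higher (0.287%) and 5 of 381 windows of genes lower (1.31%). For the AP-1 motif TGANTCA the shares were 6.01%, 5.70% and 5.79%, in the same order, and 8.05% of windows higher and 5.77% of windows lower at 2-fold or more. They were, for the cyclic AMP motif TGACGTCA, 2.73%, 2.57% and 2.81%. The C/EBP motif TTGCNNAA was in 8.91%, 9.14% and 8.85%, and the E-box CACGTG in 9.12%, 10.8% and 9.54%. TTCNNNGAA, a STAT motif added after the results were seen, was in 6.99%, 7.66% and 7.01%. These shares carry no test, and 73.1% of genes tested had a promoter window.

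MHC class I presentation was the list with the highest share of calls in 1 direction: 12 of 16 genes were higher at T6 and none lower (median log2 fold change 0.46). Tap2, a subunit of the peptide transporter, was at 482, 408 and 460.2 CPM at T6 and at 274, 219 and 271 CPM at T4 (log2 fold change 0.82, SE 0.11, adjusted p = 9.93e-07). Psmb10, an immunoproteasome subunit, was at 442, 434 and 466 CPM at T6 and at 247, 233 and 280.5 CPM at T4 (log2 fold change 0.82, SE 0.15, adjusted p = 7.03e-05). All T6 libraries lay above all T4 libraries in both. Tap1 (0.53), the loading factor Tapbp (0.51), Psmb8 (0.61), Psmb9 (0.50) and the proteasome activator genes Psme1 (0.56) and Psme2 (0.54) rose as well. The heavy chain genes H2-K1 (0.20) and H2-D1 (0.10), which have near-identical relatives, were not called. Of 13 class II and costimulation genes 3 were called higher and none lower. Cd86, a costimulatory ligand of CD28, was at 395, 386 and 404 CPM at T6 and at 201, 191 and 193 CPM at T4 (log2 fold change 1.02, SE 0.075, adjusted p = 2.86e-11), and Pdcd1lg2, which encodes PD-L2, rose by 1.66 at levels near 1 CPM. Cd274, which encodes PD-L1, was called higher (0.34) but not without individual 1 (adjusted p = 0.0724) or without the block (0.0809).

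**Figure D3:**
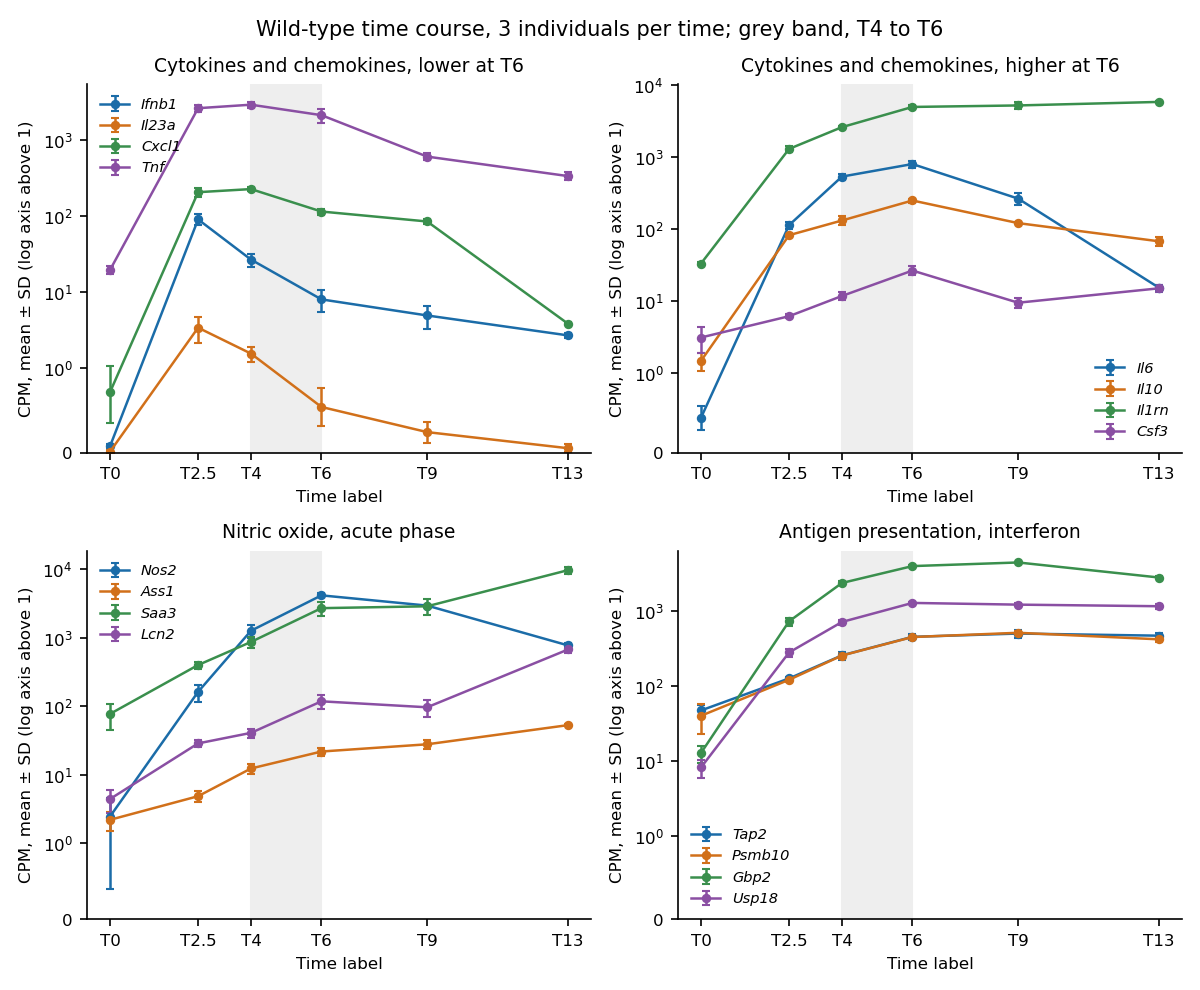
Mean CPM ± SD of 3 wild-type libraries at each time (vertical, log axis above 1 CPM) against the time label (horizontal, unit not given), with the T4 to T6 step in grey. Ifnb1 and Il23a were highest at T2.5 and Tnf and Cxcl1 at T4; Il6, Il10 and Csf3 were highest at T6, as was Nos2, while Saa3 and Lcn2 were highest at T13.

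Among 25 Toll-like receptors and their adaptors, 9 were called higher and 4 lower at T6 (median log2 fold change 0.19). Over all genes tested 15.1% were higher and 14.6% lower. Tlr9, an endosomal sensor of DNA, was at 50.2, 48.4 and 50.8 CPM at T6 and at 23.6, 21.99 and 26.1 CPM at T4 (log2 fold change 1.06, SE 0.15, adjusted p = 3.21e-06). Tlr3, a sensor of double-stranded RNA (0.89), Tlr6 (0.53), and the adaptors Ticam2, which links TLR4 to TRIF (0.81), and Tirap (0.52) rose as well. Tlr2, a receptor of bacterial lipoproteins, was at 1364, 1272 and 1239 CPM at T6 and at 2023, 1813 and 1782 CPM at T4 (log2 fold change -0.53, SE 0.083, adjusted p = 9.60e-06). The LPS receptor gene Tlr4 (-0.21) and its co-receptor Cd14 (-0.019) were not called. The count of genes called lower in this list was 1 without individual 1 and 2 without individual 2 or 3. Of 12 inflammasome and Nod genes 5 were called higher and none lower, among them Casp1 (0.57), Casp4 (0.38), Casp8 (0.35) and Gsdmd, which forms the pyroptotic pore (0.57).

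Nos2, the inducible nitric oxide synthase that makes antimicrobial nitric oxide from arginine, rose at T6. It was at 4382, 3839 and 4238 CPM at T6 and at 1474, 938 and 1373 CPM at T4, a fold of 3.29 (log2 fold change 1.73, SE 0.29, adjusted p = 3.77e-05). Untreated cells held 2.44 ± 2.04 CPM. The arginine transporter Slc7a2 was at 2139, 1656 and 1613 CPM at T6 and at 1075, 809 and 817 CPM at T4 (log2 fold change 1.00, SE 0.11, adjusted p = 4.24e-08). Ass1, which regenerates arginine from citrulline, was at 23.2, 18.6 and 23.4 CPM at T6 and at 11.3, 10.96 and 14.6 CPM at T4 (log2 fold change 0.83, SE 0.15, adjusted p = 9.61e-05). Gch1, which makes the cofactor tetrahydrobiopterin, was called higher (0.32) but not without individual 1 (adjusted p = 0.0858). In this list 4 of 10 genes were called higher and 2 lower, against 15.1% and 14.6% of all genes tested. Those lower were Asl, which completes the regeneration of arginine (-0.36), and Odc1, which makes polyamines (-0.42). Asl was not called without individual 1 (adjusted p = 0.0756) or 3 (0.0534), and Odc1 was not called without the block (0.0661). Irg1, the itaconate synthase gene, was at 10206 ± 160.2 CPM at T6 and 8474 ± 297 CPM at T4 (SD, n = 3 each) and was not called (log2 fold change 0.27, SE 0.17, adjusted p = 0.26). A fit of the 6 libraries alone did call Irg1 higher, with the block (adjusted p = 2.13e-05) and without it (0.0111).

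Acute phase, iron and metal genes had 6 of 13 called higher and 4 lower, against 15.1% and 14.6% of all genes tested. Saa3, an inducible serum amyloid A, was at 2647, 2112 and 3343 CPM at T6 and at 806, 756 and 1036 CPM at T4 (log2 fold change 1.64, SE 0.25, adjusted p = 6.36e-06). Lcn2, which binds bacterial siderophores, was at 109, 96.6 and 147 CPM at T6 and at 35.7, 38.5 and 47.8 CPM at T4 (log2 fold change 1.53, SE 0.16, adjusted p = 2.57e-08). Haptoglobin, Hp, rose by 0.96 and the mitochondrial superoxide dismutase Sod2 by 0.32, while the iron exporter Slc40a1 (-0.86), the transferrin receptor Tfrc (-0.75) and the metal importer Slc39a14 (-0.60) fell.

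Of 16 eicosanoid genes 5 were called higher and 9 lower at T6, against 15.1% and 14.6% of all genes tested (median log2 fold change -0.35). Those higher included Pla2g4a, which releases arachidonic acid (0.86), Ptgs2, the inducible cyclooxygenase (0.67), and the prostaglandin E synthases Ptges2 (0.63) and Ptges. Ptges was at 328, 348 and 398 CPM at T6 and at 111, 129.9 and 154 CPM at T4 (log2 fold change 1.45, SE 0.15, adjusted p = 2.46e-08). Genes called lower included the constitutive cyclooxygenase Ptgs1 (-0.51), the leukotriene gene Lta4h (-0.88), the prostaglandin-degrading Hpgd (-0.90) and the prostaglandin E2 receptors Ptger2 (-0.75) and Ptger4 (-0.85). The count called lower was 6 without individual 1 or 3 and 8 without individual 2. Alox5ap, Tbxas1 and Ptges3 lost their calls without individual 1 or 3, and Hpgds without individual 2.

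Metabolic lists are read against the 15.1% higher and 14.6% lower of all genes tested, and the shares of the glycolysis, lysosomal and TCA cycle lists do not set those lists apart. Of 24 glycolysis and HIF-1 genes 5 were called higher and 4 lower. Pfkfb3, which makes an activator of phosphofructokinase, was at 1169, 1138 and 1425 CPM at T6 and at 536, 476 and 617 CPM at T4 (log2 fold change 1.199, SE 0.10, adjusted p = 2.22e-10). Hk2 was at 179, 171 and 159 CPM at T6 and at 386, 344 and 342 CPM at T4 (log2 fold change -1.07, SE 0.10, adjusted p = 1.27e-09). Its fellow hexokinases Hk1 (0.46) and Hk3 (0.97) were called higher instead, and the vasodilator gene Adm fell (-1.69). Sterol and fatty acid synthesis had 1 of 31 genes called higher and 10 lower (median log2 fold change -0.20), with Insig1 (-0.72), Dhcr7 (-0.72), the desaturase Fads1 (-0.79) and the elongase Elovl6 (-1.57) among those lower. The gene called higher, Sc5d, was not called without individual 1 (adjusted p = 0.11) or 3 (0.11) or without the block (0.0651). The oxysterol enzyme Ch25h was at 522, 533 and 519.6 CPM at T6 and at 253, 251 and 295 CPM at T4 (log2 fold change 0.98, SE 0.18, adjusted p = 8.77e-05), 1 of 2 genes called higher of 9 LXR targets, with Abcg1 (0.49). NRF2 targets split 5 higher and 4 lower of 16, including the heme oxygenase Hmox1 (0.73) and Nfe2l2 itself (0.55) among those higher, and Txnrd1 (-0.63) and Cat (-0.57) among those lower. The NRF2 count called higher was 3 without individual 3. Of 16 TCA cycle and respiratory chain genes none was called higher and 2 lower, Fh1 (-0.52) and Idh2 (-0.44), and 1 was called lower without individual 3. In the lysosomal list 3 of 22 were called higher and 2 lower, the falls being in the MiT/TFE factors Tfec (-1.34) and Mitf (-0.69). The calls higher there were 0 without individual 1 or 3.

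Cell cycle genes were called lower more often than higher, 14 against 3 of 34 (median log2 fold change -0.39), and 9 were lower without individual 1. Over all genes tested 14.6% were lower and 15.1% higher. Mki67, a proliferation marker, was at 78.6, 60.9 and 53.2 CPM at T6 and at 161, 117 and 120.3 CPM at T4 (log2 fold change -1.05, SE 0.14, adjusted p = 7.00e-07). The replication licensing genes Mcm2 (-1.05), Mcm7 (-1.06), Mcm3 (-0.64) and Mcm4 (-0.57) and the factor E2f1 (-0.60) fell as well, as did the inhibitor Cdkn1a (-0.57). Cyclin D1, Ccnd1, ran the other way, at 80.98, 117 and 85.00 CPM at T6 and 29.9, 39.4 and 37.1 CPM at T4 (log2 fold change 1.40, SE 0.12, adjusted p = 6.46e-10), and Ccne1 rose by 0.79. Of 16 survival and death genes 4 were called higher and 6 lower, beside the same shares of all genes tested. Genes of the BH3-only killers were split, with Bcl2l11, which encodes Bim (-0.87), Bbc3 (-0.96) and Pmaip1 (-0.90) lower and Bid (0.75) higher, while the effector Bak1 (0.64) and the inhibitor Bcl2l1 (0.49) rose.

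Stress and other lists were called in small numbers, and no claim about the lists as such rests on these counts. Of 23 unfolded protein and integrated stress response genes 2 were called higher and 4 lower, with Ppp1r15a, which restores translation, at 124, 87.8 and 91.6 CPM at T6 and at 224, 234 and 216 CPM at T4 (log2 fold change -1.16, SE 0.14, adjusted p = 3.17e-07). Leaving out individuals 1, 2 and 3 in turn gave 1, 5 and 1 of these genes higher, and 2 lower without individual 1 or 2. Heat shock genes were called 2 higher and 3 lower of 11, including Hspa1b (-1.04) lower and Dnajb1 (0.40) higher; 1 was higher without individual 1 or 3 and 1 lower without individual 1 or 2. Ribosome biogenesis genes were called 3 lower and none higher of 15, the largest being Nop58 (-1.07). Protease and coagulation genes were called 3 higher and 3 lower of 15, with Thbs1, thrombospondin 1 (1.16), and Mmp14 (0.55) higher and Adamts4 (-1.68) and tissue factor F3 (-1.37) lower. Of 14 clock genes 3 were called higher and 4 lower, with Arntl higher (0.60) and Clock (-0.67) and Bhlhe40 (-0.90) lower. In the clock list 1 was higher without individual 1 and 2 were lower without individual 3.

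**Figure D4:**
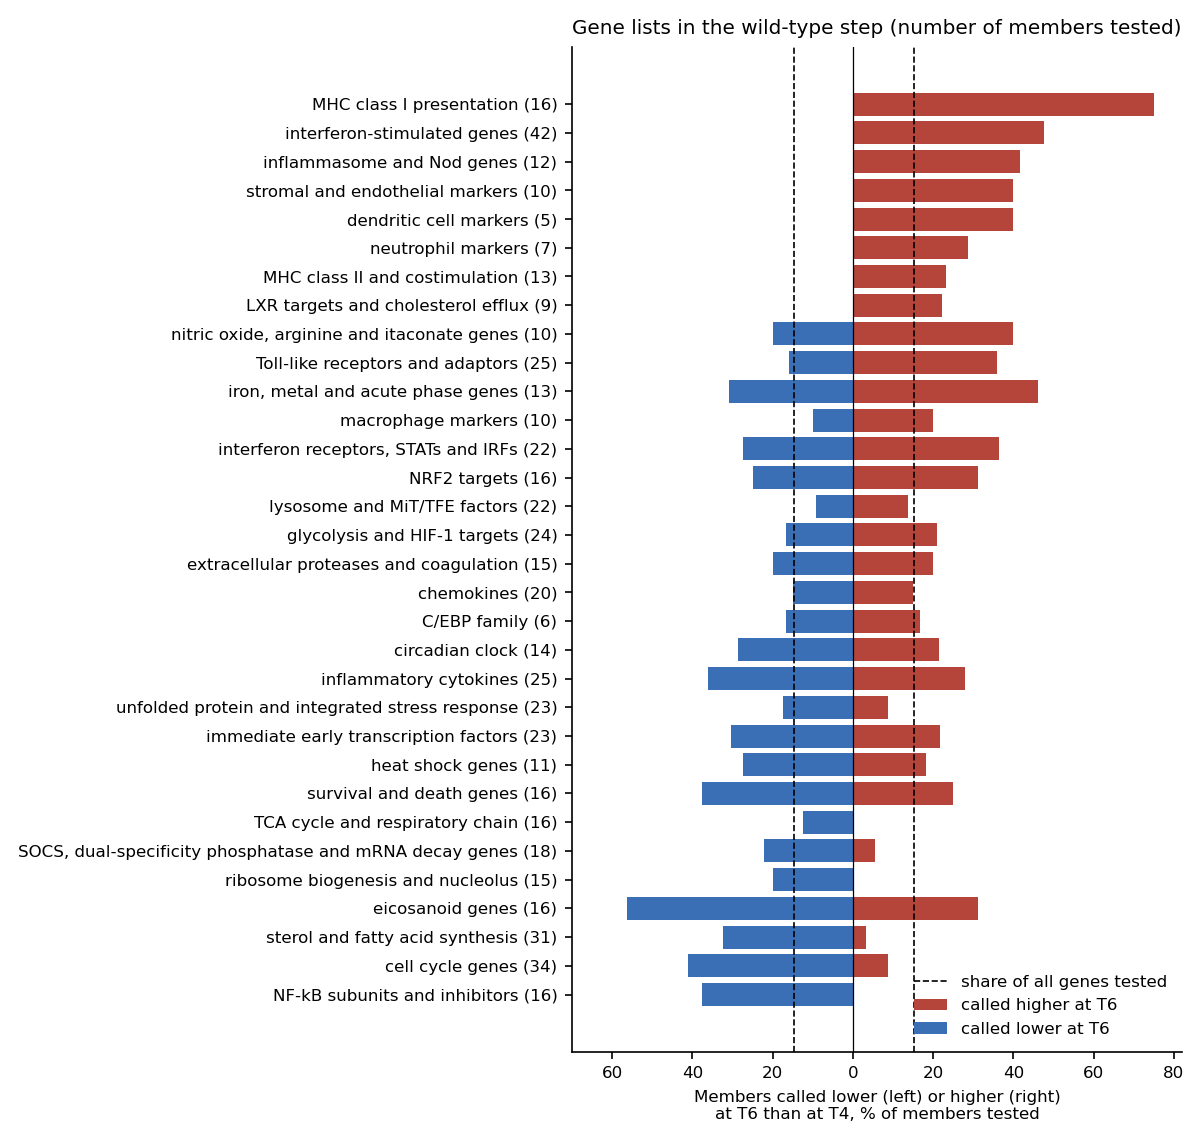
Percent of the members tested of each list that were called higher (red, right) or lower (blue, left) at T6 than at T4, for 32 lists with at least 5 members tested; the number tested is in parentheses. Dashed lines mark the shares over all genes tested, 15.1% higher and 14.6% lower; MHC class I presentation and interferon-stimulated genes had calls only on the right, and NF-kB subunits and inhibitors only on the left.

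Markers of cell types were listed to show what else the cultures held. Of 10 macrophage markers 2 were called higher, among them the IgG receptor Fcgr1 (0.76), and 1 lower, Csf1r (-0.22), which was not called without individual 1 or 3. Stromal and endothelial markers summed to 447 to 913 CPM at T6 and to 356 to 731 CPM at T4. Of these 10 genes 4 were called higher, Col3a1 by 0.87 and Col1a1, Col1a2 and Dcn by 0.29, 0.27 and 0.31, but libraries overlapped in all 4, 2 were called without each individual in turn and 0 without the block. Without individual 2, Col1a1 had an adjusted p of 0.11 and Dcn of 0.0763. Neutrophil markers summed to 261 to 340 CPM at T6 and to 198 to 250 CPM at T4, with the receptor Csf3r (0.53) and S100a8 (0.39) called higher of 7, and 1 of them without individual 1 or 3. Their median log2 fold change was -0.033, and Csf3r held most of the sum, with 22637 counts at T6 and 17096 at T4 over 3 libraries each. The other tested markers were not called and went both ways. Elane had 32 counts at T6 and 122 at T4, Mpo 142 and 508, S100a9 2049 and 2290, and Ltf 428 and 557. Camp had more at T6, 307 counts against 266 at T4. The defining granulocyte gene Ly6g had 0 counts at T6 and 1 count at T4 over 3 libraries each. Dendritic cell markers summed to 34.3 to 40.9 CPM at T6 and to 26.6 to 29.8 CPM at T4; Ccr7, a homing receptor of mature dendritic cells that macrophages can also induce, was at 2.94, 5.22 and 6.69 CPM at T6 and at 0.691, 0.709 and 1.23 CPM at T4 (log2 fold change 2.47, SE 0.25, adjusted p = 1.10e-08), and Xcr1 rose by 0.54. Zbtb46, with 47 counts at T6 and 64 at T4, and Itgax, with 982 and 1184, were not called. Flt3, a defining gene of dendritic cell precursors, had 12 counts at T6 and 11 at T4. Lymphocyte markers summed to at most 0.311 CPM at T6 and 0.479 CPM at T4 and none was called; of the red cell and platelet list only Pf4 was abundant, and it was not called (-0.10). The part of these cells in the results above was not tested.

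The step was repeated in COP1-floxed macrophages, where 2785 genes (17.8%) were called higher and 2678 (17.1%) lower at T6. Of the wild-type genes called higher, 1990 were also called higher in floxed cells, 84.0% of the wild-type list and 71.5% of the floxed list, and 1 was called in the opposite direction. Of those called lower, 1913 were shared, 83.7% of the wild-type list and 71.4% of the floxed list, and none was opposite. The sign of the fold change was the same in floxed cells for 99.1% of wild-type genes called higher and for 99.4% of those called lower. Among genes that changed at least 2-fold in wild type, 289 of 378 higher and 316 of 387 lower were also called in floxed cells, with medians of 1.30 in floxed and 1.28 in wild-type cells for those higher and of -1.25 in floxed and -1.26 in wild-type cells for those lower. Clic5 had a log2 fold change of 4.19 in floxed and 3.58 in wild-type cells, Nos2 2.25 and 1.73, Rnd1 -2.75 and -2.70, and Cish -2.09 and -2.31. Tnf was not called in floxed cells (-0.35, adjusted p = 0.11).

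The difference of the step itself, floxed minus wild type, was called in no gene (0%) by edgeR's quasi-likelihood test, with a smallest adjusted p of 0.606, while 533 genes had an unadjusted p under 0.05. DESeq2 and limma-voom also called 0. By the naming rule, Frmd6 had log2 fold changes of -2.23 in floxed and -1.11 in wild-type cells, a difference of -1.12 with an adjusted p of 0.606. Mpo, a gene of immature granulocytes, was the other gene named by that rule, at -0.46 in floxed and -1.73 in wild-type cells, called in neither as reported; in wild type it was called lower in 3 of 14 alternatives.

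**Figure D5:**
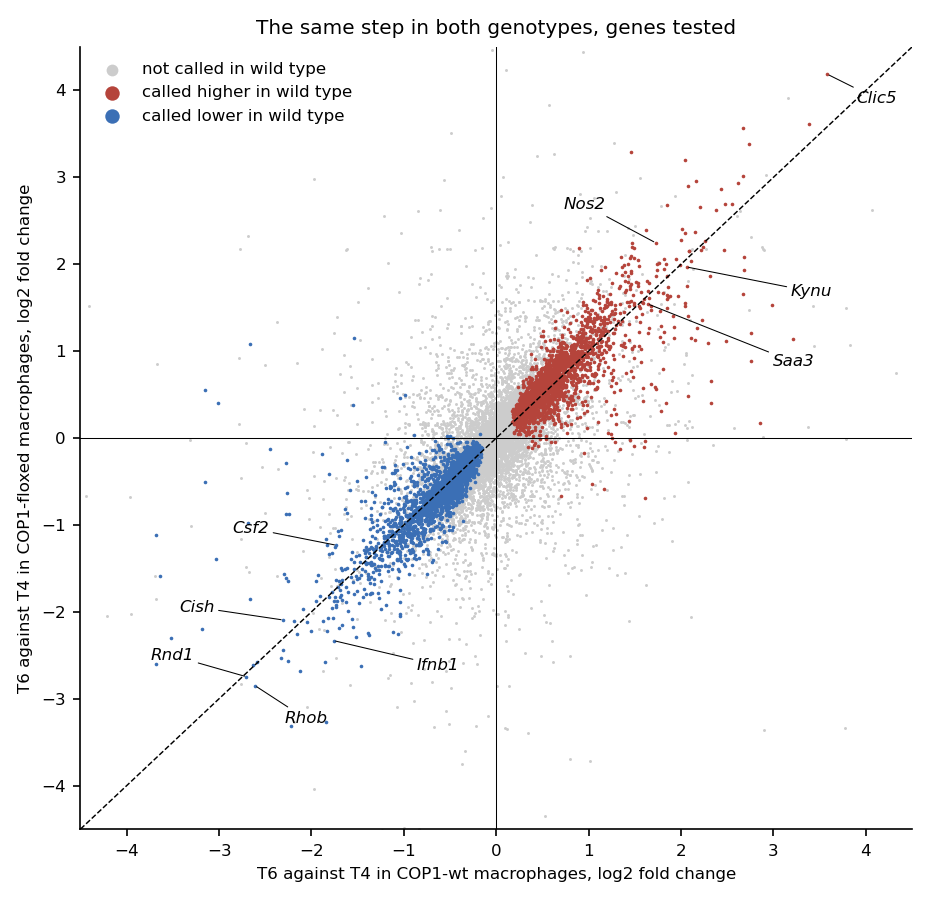
Log2 fold change of T6 against T4 in COP1-floxed macrophages (vertical) and in COP1-wt macrophages (horizontal), 1 point per gene tested, coloured by the wild-type call; 24 genes beyond 4.5 on either axis are not drawn. Red and blue points lie around the dashed line of equal change, with 4.19 in floxed and 3.58 in wild-type cells for Clic5 and -2.85 and -2.61 for Rhob.

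The neighbouring steps of the wild-type course give the place of this one. The step before, T4 against T2.5, had 2762 genes (17.6%) higher and 2818 (18%) lower and uses the same T4 libraries. The step after, T9 against T6, had 1184 (7.55%) higher and 1125 (7.17%) lower and uses the same T6 libraries, so values are set side by side without a correlation or overlap. Interferon-stimulated genes had 40 of 42 called higher in the step before, 20 in the T4 to T6 step and 2 in the step after, with none lower in any of them, and medians of 0.95, 0.28 and -0.01. MHC class I presentation had 13, 12 and 0 of 16 called higher. Inflammatory cytokines had 16 higher and 5 lower, then 7 higher and 9 lower, then 1 higher and 14 lower of 25. NF-kB subunits and inhibitors had 6 higher and 2 lower, then none higher and 6 lower, then none higher and 12 lower of 16. For single genes the log2 fold changes of the 3 steps were 2.97, 1.73 and -0.49 for Nos2, 0.68, 0.93 and -1.04 for Il10, and -1.75, -1.76 and -0.69 for Ifnb1. They were 0.15, -0.47 and -1.80 for Tnf. For Rhob, which was not called in the step before, they were 0.048, -2.61 and 0.47, and for Pfkfb3, likewise not called there, -0.044, 1.199 and -0.64.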

How the data were processed

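Polyadenylated RNA was sequenced from 36 libraries of BMDMs from 6 individuals, with the groups and individuals taken from the labels. What the authors deposited is, by the file headers, a table of raw counts of uniquely aligning reads for Entrez gene models. A second deposited table gives RPKM that the authors scaled with size factors, again per the file headers. The annotation columns are other values, deposited with the symbols used here. Each library also has its own file with the same counts and RPKM. GSNAP and the build GRCm38 are named in the submitters' processing notes. The sources used here give neither tool versions nor the strand setting. Overlapping genes share reads if strand was ignored, and uniquely aligning reads undercount near-identical copies. Ribosomal RNA rows held 0.00848% of the counts.

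Counts were tested with edgeR 4.0.16 (R 4.3.3; glmQLFit, glmQLFTest, two-sided) on all 36 libraries, with TMM scaling, filterByExpr, 12 group means and the individual as a block, which kept 15685 of 36528 genes. Benjamini-Hochberg adjustment ran over those genes at 0.05, and the standard error is the fold change divided by the root of F. The block was used because the labels give T6 and T4 libraries of the same individuals. The correlation of their deviations from the group means was 0.47, 0.34 and 0.20 for individuals 1, 2 and 3. Between different wild-type individuals it ran from -0.40 to 0.14. Deviations from a mean of 3 libraries cancel out within each group. Where the values of the same individual are positive, the mismatched values are therefore pushed downward by construction. Replicates of 1 group differed by more than counting noise, with a chi-square per degree of freedom of 13.1 or more. limma 3.58.1 and DESeq2 1.42.0 were alternatives. For RPKM, limma-trend used log2(RPKM + 1). Named genes were the 15 largest rises and falls among called genes with separated libraries and 5 CPM or more in the group with more, among the same genes the 5 largest gains and losses in CPM, up to 4 called members per list by adjusted p, a set of fixed genes, and up to 5 genes by the difference between genotypes of at least 1 (log2). Genes named beyond this rule were chosen after their values were seen. The members and the 34 lists were chosen with earlier results of these data known. Symbols of 14764 tested genes (94.1%) matched RefSeq. Some genes are counted in their lists but not reported by name.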

Additional observations from a re-analysis of the deposited data

How the results depend on the processing

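None of 186 named genes changed sign while called under the 15 alternatives for the wild-type step. Of those not called, 16 were called in at least 1 alternative, 10 of them in 1 only. The balance of calls higher and lower was turned round in the unfolded protein list (5 and 2) and the heat shock list (2 and 1) without individual 2, in the cytokine list (6 and 5) and the clock list (3 and 2) without individual 3, and in the lysosomal list (0 and 2) without individual 1 or 3. Library totals gave 1914 higher and 2894 lower in wild type, and DESeq2 moved the median log2 fold change of all genes to 0.016. Leaving out 1 individual in turn gave 1632 to 2179 genes higher and 1544 to 1951 lower in wild type, and 1816 to 2688 higher and 1591 to 2485 lower in floxed cells. It gave 2056 to 2488 higher and 1863 to 2547 lower for T4 against T2.5, and 539 to 1008 higher and 549 to 1078 lower for T9 against T6. Without the replicate block 2009 genes were higher and 1871 lower, and 83.2% of the 4654 calls were shared; the 6 libraries alone gave 3310 higher and 3340 lower with the block and 2016 and 1987 without it. Library totals gave 1802 higher and 4386 lower in floxed cells, 1700 and 5807 for T4 against T2.5 and 1640 and 798 for T9 against T6; the cause was not tested. Those totals moved the median log2 fold change of all genes tested to -0.18 in floxed cells and to -0.27 for T4 against T2.5. Without the library floxed T9 of individual 2 the counts were 2549 and 2379 in wild type, 2827 and 2928 in floxed cells, 2796 and 3100 for T4 against T2.5 and 1286 and 1244 for T9 against T6. Other scalings, filters and tools gave 2027 to 2693 higher and 1986 to 2232 lower in wild type. The difference between genotypes had 0 calls in each alternative run. Of 279 called list members and named genes, 202 kept their call without each individual. Precision is limited by 3 individuals per group. The p-values measure the spread left after the group and individual terms, estimated over all 36 libraries and not from the 6 of this step alone.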
